A study of Mus musculus with 7 samples.

Results

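The regions described here were bound by CTCF in both mouse lines of the study, the fibroblast line NIH3T3 (3T3 for short) and the embryonal carcinoma line P19, and carried a peak of the CTCF paralogue CTCFL (also called BORIS) in 3T3 cells only. Peaks of 4 deposited lists were merged wherever they overlapped by at least 1 bp, and a region was kept if it held a 3T3 CTCF, a P19 CTCF and a 3T3 CTCFL peak and no P19 CTCFL peak. This gave 1355 of 65700 merged regions, 2.06%, called 3T3-only CTCFL regions below. They are 7.36% of the 18411 regions with CTCF in both lines (common CTCF regions below). The regions were thus chosen by the presence and absence of called peaks, that is by peak scores above the limit of each list, so these scores are given as a description.

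CTCF is a zinc-finger protein that binds DNA in nearly all cell types, insulates genes from neighbouring enhancers and, together with cohesin, anchors chromatin loops. CTCFL shares its DNA-binding zinc fingers but differs in its flanking parts, and is normally made in male germ cells and in some tumours. When CTCFL is present with CTCF, both can bind the same kind of site.

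Chromatin of both lines was immunoprecipitated and sequenced, with antibody N2.2 against CTCF and S6 against CTCFL, and each group had 1 library. The 3T3 cells and the P19 cells analysed here both carried the constructs pBI-EGFP-FLAG-mCtcfl (named for EGFP, a FLAG tag and mouse Ctcfl) and pTA-N as stable integrates. The labels describe culture with 2 µg/ml doxycycline and induction by 48 h without it, in the same words for every sample, and the P19 titles add "control", so whether Ctcfl was induced in the P19 cells is not settled by them. 3T3 libraries of cells without the constructs and a P19 input library were not analysed here, so the CTCFL antibody was not checked against cells without the constructs, and whether a line was 1 clone is not given in the sources used here.

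The lists held 45653 peaks for 3T3 CTCF, 16764 for 3T3 CTCFL, 32277 for P19 CTCF and 5866 for P19 CTCFL. Single libraries leave no replicate spread to test against, so p-values are absent throughout. Intervals are exact (Clopper-Pearson) 95% intervals for shares and order-statistic 95% intervals for medians. They cover counting error only, and neighbouring regions are not independent. Read depth is unknown. The peak score, read as a log-scaled p-value of the peak caller, starts at 50 in each list and varies with sequencing depth and with the control used. It is therefore given as a percentile, the rank of a peak within its own list from 0 to 100. Where a region held several peaks of a list, the highest scoring one stood for it. A region without P19 CTCFL is one without a called peak, and the P19 CTCFL list is the shortest of the 4.

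CTCFL had a peak in 3T3 at 14.7% of common CTCF regions and in P19 at 16.7%. Of the 2708 common CTCF regions with 3T3 CTCFL, 1355 lacked a P19 CTCFL peak, 50.04% (48.1 to 51.9), and 1353 had one. In the other direction, 1716 of 3069 common CTCF regions with P19 CTCFL lacked 3T3 CTCFL, 55.9% (54.1 to 57.7). Where 3T3 cells had both factors and P19 cells had no CTCF peak, the share without P19 CTCFL was 90.2% (5984 of 6636 regions, 89.4 to 90.9). A P19 CTCF peak was thus accompanied by a smaller share of regions without P19 CTCFL. This share depended on how weak a peak was admitted. It was 23.3% with all lists cut to the length of the shortest (5866 peaks, by score), 35.9% with scores of at least 100 in the other 3 lists, and 63.8% with that limit in all 4.

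Bound regions with CTCFL in 3T3 only stood near the top of the 3T3 CTCF list and in the middle of the P19 CTCF list. Their 3T3 CTCF score ran from 50.4 through a median of 1352 to 3233, against a list median of 104. Their P19 CTCF score ran from 50.04 through a median of 141 to 983, against a list median of 117. As percentiles, the medians were 94.99 (94.6 to 95.5) for 3T3 CTCF and 59.96 (57.4 to 62.6) for P19 CTCF. The 3T3 CTCFL score ran from 50.02 through a median of 103 to 1771, a median percentile of 66.1 (63.1 to 68.1). These percentiles come from lists of different length and, for CTCFL, from another antibody.

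Other common CTCF regions did not share this pair of ranks. Those without CTCFL in either line (13987 regions) had median percentiles of 63.9 for 3T3 CTCF and 59.95 for P19 CTCF, nearly level between the lines. Regions with both factors in both lines had 96.1 and 78.7, and those with CTCFL in P19 only had 71.7 and 80.9. The 3T3-only CTCFL regions were thus like the regions of all 4 lists in 3T3 CTCF rank, and like the regions without CTCFL in P19 CTCF rank. For 3T3 CTCFL the median percentile was 87.3 in regions of all 4 lists and 59.8 in the 5984 regions with both factors in 3T3 and no P19 peak, on either side of the 66.1 seen here.

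**Figure D1:**
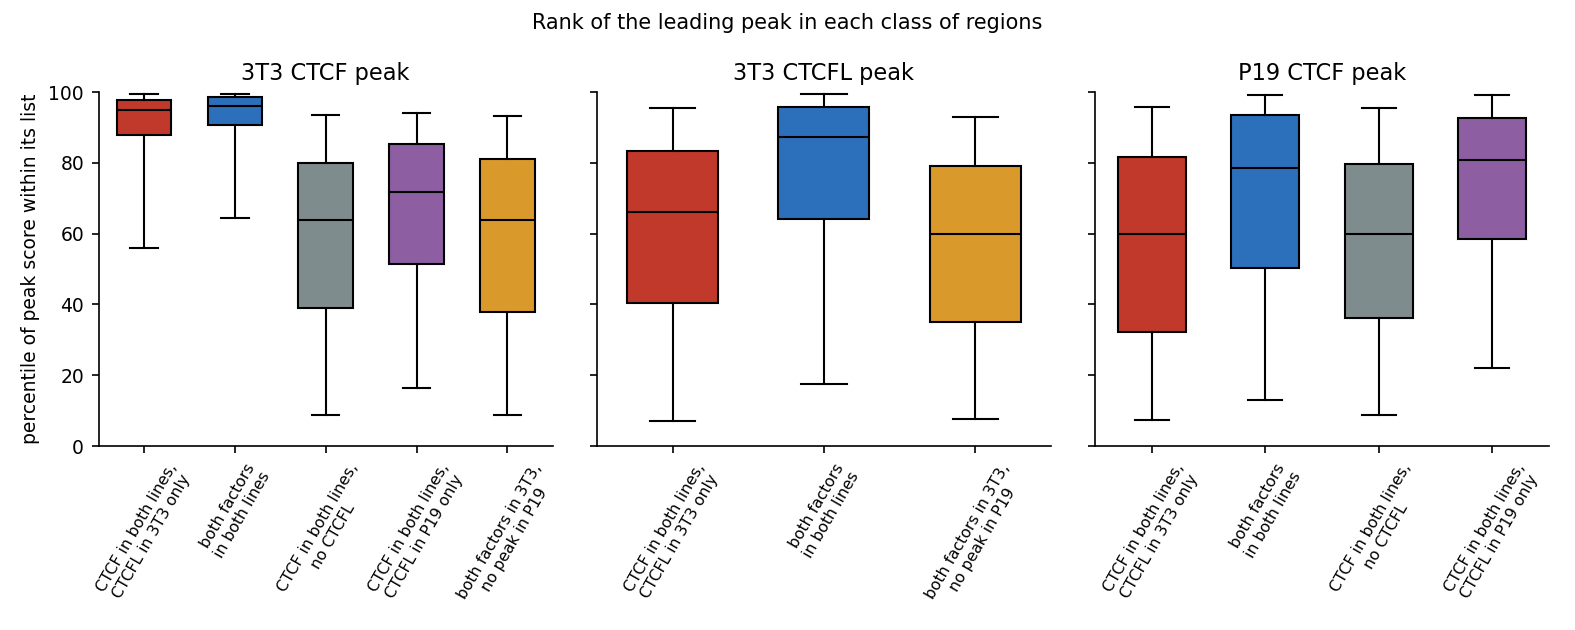
Percentile of the highest scoring peak within its own list (0 to 100), by class of merged regions, for 3T3 CTCF, 3T3 CTCFL and P19 CTCF. Lines mark medians, boxes the quartiles and whiskers the range from 5% to 95% of regions. The 3T3-only CTCFL regions (red) have a median of 94.99 in the 3T3 CTCF list and 59.96 in the P19 CTCF list.

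Region by region the same order held. The 3T3 CTCF percentile exceeded that of P19 CTCF in 1217 of 1355 3T3-only CTCFL regions, 89.8% (88.1 to 91.4). That share was 80.6% in regions of all 4 lists, 51.8% in those without CTCFL and 37.5% in those with CTCFL in P19 only. Because the lists differ in length, the rank was also counted in peaks from the top of each list. The shares were then 85.2% (83.2 to 87.1), 74.1%, 35.4% and 25.9% in the same order. In 961 regions, 70.9%, the 3T3 CTCF peak was among the 10% highest of its list, and in 344 of these the P19 CTCF peak was below a percentile of 50. Such a pairing, 25.4% of the 3T3-only CTCFL regions, made up 15.3% of the regions of all 4 lists and 2.24% of those without CTCFL. Both CTCF peaks were among the 10% highest in 158 regions, 11.7%.

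**Figure D2:**
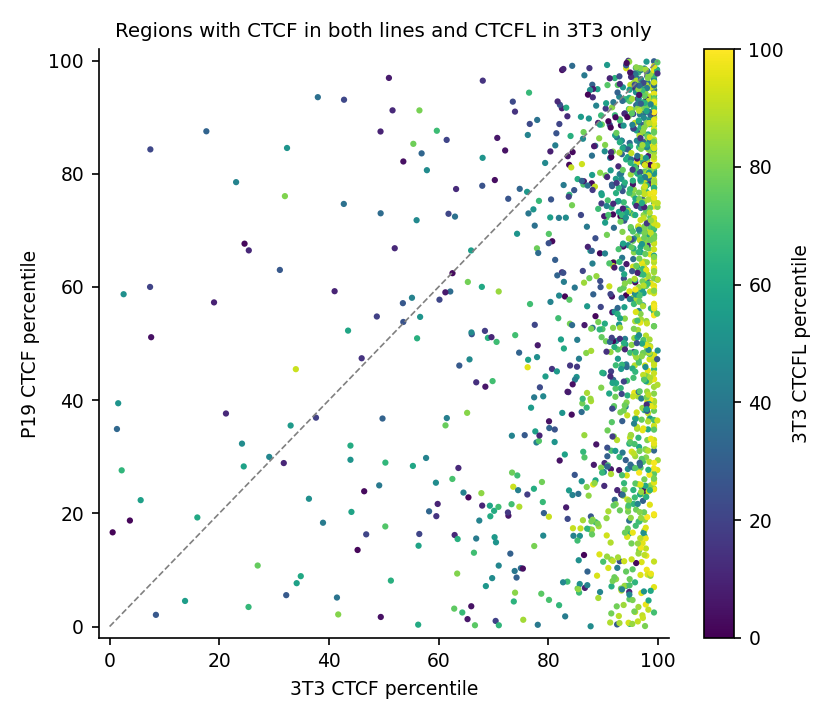
Each point is 1 of the 1355 3T3-only CTCFL regions, by percentile of its 3T3 CTCF peak (x axis) and of its P19 CTCF peak (y axis), with colour for the percentile of its 3T3 CTCFL peak. The dashed line marks equal percentiles. Points crowd at the right edge over the whole height of the plot, and 1217 of 1355 lie below the line.

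The P19 rank was low for the 3T3 rank. Common CTCF regions were split into 10 groups of nearly equal size by 3T3 CTCF score, and P19 CTCF was compared within each. In all 10 groups the 3T3-only CTCFL regions had a lower median P19 CTCF percentile than the regions without CTCFL. Groups 1 to 4 held only 15 to 28 3T3-only CTCFL regions each, and the intervals overlapped there. In group 4 the medians were 55.9 (29.8 to 71.8) and 56.9 (55.3 to 58.9). In the highest group (3T3 CTCF scores of 1437 and above) it was 68.7 (64.9 to 71.4) in 651 3T3-only CTCFL regions and 78.7 (76.6 to 82.2) in 396 regions without CTCFL. In the next group it was 58.3 (50.8 to 64.3) and 73.1 (71.0 to 75.2), over 317 and 1035 regions. Averaged over groups, weighted by the 3T3-only CTCFL regions in each, the difference was −13.9 percentile points. Of the 1355 regions, 882 lay below the median of the regions without CTCFL in their own group, 65.1% (62.5 to 67.6), where equal ranks would give 50%. In groups of 3T3 CTCF peak width in place of score this share was 56.7% (54.0 to 59.3). The share was 70.3% (67.7 to 72.7) when set against regions of all 4 lists in the same score group, and 87.5% (85.6 to 89.2) against those with CTCFL in P19 only. Taken the other way, at like P19 CTCF score only 6.27% (5.04 to 7.70) of the 3T3-only CTCFL regions lay below the median 3T3 CTCF percentile of regions without CTCFL. Against regions of all 4 lists that share was 51.7% (49.0 to 54.4), near the 50% that equal ranks would give.

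**Figure D3:**
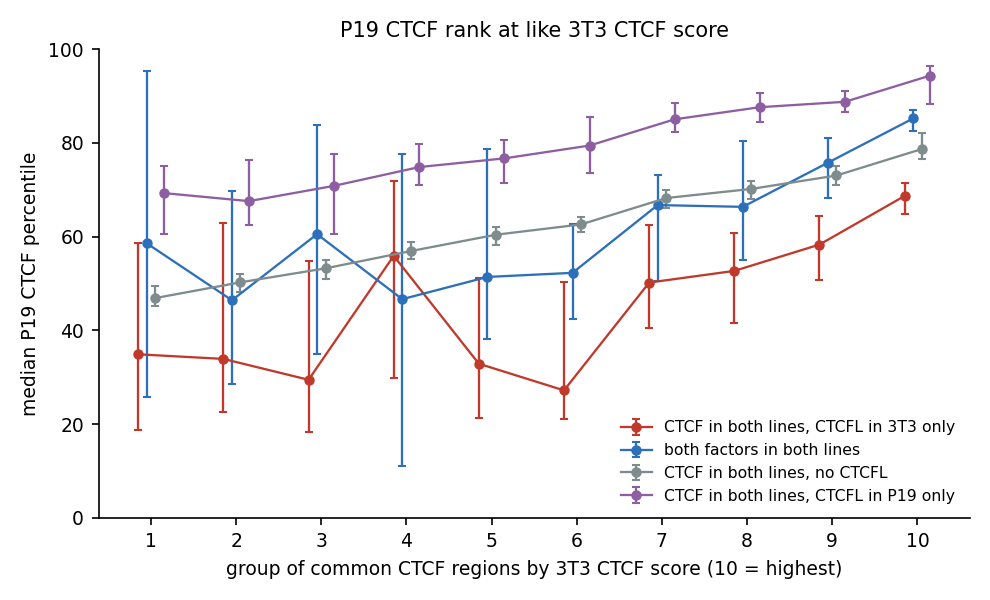
Median P19 CTCF percentile (y axis) in 10 groups of common CTCF regions by 3T3 CTCF score (x axis, 10 the highest), with order-statistic 95% intervals as bars. The 3T3-only CTCFL regions (red) lie below the regions without CTCFL (grey) in all 10 groups, with 68.7 against 78.7 in the highest. The intervals of these classes overlap in groups 1 to 4.

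By score, these regions were concentrated at strong 3T3 CTCF sites and spread more evenly over P19 CTCF scores. Among common CTCF regions their share went from 0.814% (15 of 1842) in the lowest 3T3 CTCF group through 7.71% in group 8 and 17.2% in group 9 to 35.4% (33.2 to 37.6) in the highest. Over 10 groups of P19 CTCF score the share stayed between 5.87% and 9.61%. At the top of the 3T3 CTCF list 185 of the 1355 regions had a score of at least 3100, a value shared by 505 peaks, so scores there do not rank sites.

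Among the 3T3-only CTCFL regions themselves, stronger CTCFL went with stronger 3T3 CTCF and slightly weaker P19 CTCF. Across the 1355 regions Spearman's rho was 0.51 between 3T3 CTCFL and 3T3 CTCF scores, 0.27 between the CTCF scores of the lines, and −0.12 between 3T3 CTCFL and P19 CTCF. These are correlations across regions, which are not replicates, and both 3T3 scores come from the same cells. Absence of P19 CTCFL, which the rule requires, was itself less frequent at high 3T3 CTCFL and high P19 CTCF scores (below). How far this choice of regions shapes the value of −0.12 was not tested. In 4 groups of equal size by CTCFL score, the median 3T3 CTCF percentile was 90.3, 93.5, 95.6 and 98.0 from lowest to highest, and the median P19 CTCF percentile 67.1, 60.9, 58.1 and 53.7. The 3T3 ranks rose as the P19 ranks fell. In regions of all 4 lists the corresponding rho values were 0.67, 0.28 and −0.05.

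At the 8 regions with the strongest 3T3 CTCFL, P19 CTCF ranged from the lower to the upper part of its list. Their 3T3 CTCF scores ran from 1826 to 3100. The first, chr5:145528653-145530005 (all positions are mm9), had a 3T3 CTCFL score of 1771, a 3T3 CTCF score of 3100 and a P19 CTCF score of 316 (percentile 92.3). The second, chr6:83725496-83726504, had 1570 for 3T3 CTCFL, 3100 for 3T3 CTCF and 110 for P19 CTCF (percentile 46.5). At chr3:83959153-83959954 the same 3 scores were 1569, 3100 and 76.8 (percentile 25.8). These 3 regions thus had P19 CTCF peaks that differed from the upper to the lower part of the list. Their shared 3T3 CTCF score of 3100 is a tied value that does not rank sites. Of the other 5, chr7:53965741-53966388 (CTCFL score 1333) and chr17:45700512-45701541 (CTCFL score 1195) had P19 CTCF percentiles of 19.3 and 27.2. The regions chr3:152058456-152060004, chr15:58720037-58721318 and chr5:143667182-143667984 had P19 CTCF percentiles of 71.5, 90.9 and 85.2. The nearest P19 CTCFL peak was between 14433 and 499905 bp away for these 8 regions.

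At the 6 regions with the strongest P19 CTCF, 3T3 CTCFL ranged from the lower limit to the upper part of its list. The region chr2:32767680-32768426 had a P19 CTCF score of 983, a 3T3 CTCF score of 1264 and a 3T3 CTCFL score of 59.2 (percentile 15.3). At chr11:116532301-116533173 the 3 scores were 796, 3100 and 66.0, and at chr12:114460118-114461540 they were 642, 1196 and 51.1. CTCFL percentiles were thus 29.4 or less at these 3. Higher ones were found at chr17:45799587-45800804 (53.2), chr19:44656855-44657667 (73.8) and chr2:164214425-164215820 (83.2), with P19 CTCF scores of 745, 678 and 738. None of these 6 had CTCFL among the 10% highest of its list.

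The highest 3T3 CTCF score of all 45653 peaks, 3233, lay in a 3T3-only CTCFL region, chr17:35196407-35197156, with a CTCFL score of 215 and a P19 CTCF score of 81.7 (percentile 29.4). The regions chr9:119353542-119354369, chr17:4778196-4778759 and chr19:40686426-40687287 followed with 3T3 CTCF scores of 3219, 3212 and 3210. Their P19 CTCF percentiles were 74.8, 48.8 and 61.3, and their 3T3 CTCFL percentiles 90.3, 50.02 and 88.6. Regions already named above for the strongest CTCFL were left out of this choice. The 3T3 CTCFL scores here, at most 288, thus had to lie below the 1087 to 1771 of those named for the strongest CTCFL. Several of the latter had the tied 3T3 CTCF score of 3100, so the order of CTCF strength between the sets is not settled. Since scores of at least 3100 do not rank sites, the order among the regions named here for 3T3 CTCF is not settled either. Across all 1355 regions, stronger 3T3 CTCFL went with stronger 3T3 CTCF (Spearman's rho 0.51).

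The widest gap between the lines was at chr14:26513106-26513996, where the 3T3 CTCF score was 2312 (percentile 97.7) and the P19 CTCF score 50.1, just above the limit of the list. At chrX:92906897-92907503 the scores were 3100 and 52.0, and at chr11:94851934-94854006 they were 2116 and 51.2. The opposite order, P19 above 3T3, was strongest at chr12:33713143-33713865 (3T3 CTCF 55.0, P19 CTCF 242), chr5:140423311-140424227 (62.1 and 265) and chrX:5668978-5669788 (51.4 and 138), where 3T3 CTCFL was also weak or middling, with scores of 62.0, 67.7 and 83.6.

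Within 3T3, the regions with CTCF highest in its list relative to CTCFL were chr15:101895856-101896637, chr15:84831701-84832244 and chr9:60787846-60788417, with 3T3 CTCF scores of 3012, 2277 and 1630 and CTCFL scores of 50.5, 50.5 and 50.2. The opposite extremes were chr7:133610620-133611379 (CTCFL 101.1, CTCF 51.1), chr17:73185389-73186942 (339 and 79.6) and chr15:83385087-83386241 (88.0 and 53.6). At the last pair the CTCFL midpoint lay 938 and 568 bp from the P19 CTCF midpoint, so these merged regions hold peaks that are set apart.

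Whether a common CTCF region with 3T3 CTCFL lacked P19 CTCFL varied with the strength of both CTCFL in 3T3 and CTCF in P19. The share without a P19 CTCFL peak went from 67.5% (61.6 to 73.1) in the lowest of 10 groups by 3T3 CTCFL score to 10.7% (7.28 to 15.01) in the highest, where scores were 714 or more. By P19 CTCF score it went from 61.3% (55.2 to 67.1) in the lowest group and 67.5% in the next to 19.9% (15.3 to 25.2) in the highest. By 3T3 CTCF score it moved less, from 58.3% (52.2 to 64.2) to 43.9% (37.9 to 50.04), with 34.7% in group 9. Regions with the tied score of 3100 were divided between groups 9 and 10 by position alone, so the order of these groups is partly arbitrary. Taking CTCFL and P19 CTCF together, in 4 groups each, the share was 75.5% (67.9 to 82.0) with both lowest and 11.2% (7.09 to 16.7) with both highest. With the highest CTCFL and the lowest P19 CTCF it was 33.3% (26.4 to 40.9), and with the lowest CTCFL and the highest P19 CTCF 53.3% (45.4 to 61.1). The share thus fell along each score at both ends of the other. Even so, 203 regions with 3T3 CTCFL among the 10% highest of its list had no P19 CTCFL peak, 25.6% (22.6 to 28.8) of 793. In 96 of these 203, 47.3%, the P19 CTCF peak was below a percentile of 50, while 191 had 3T3 CTCF among the 10% highest.

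**Figure D4:**
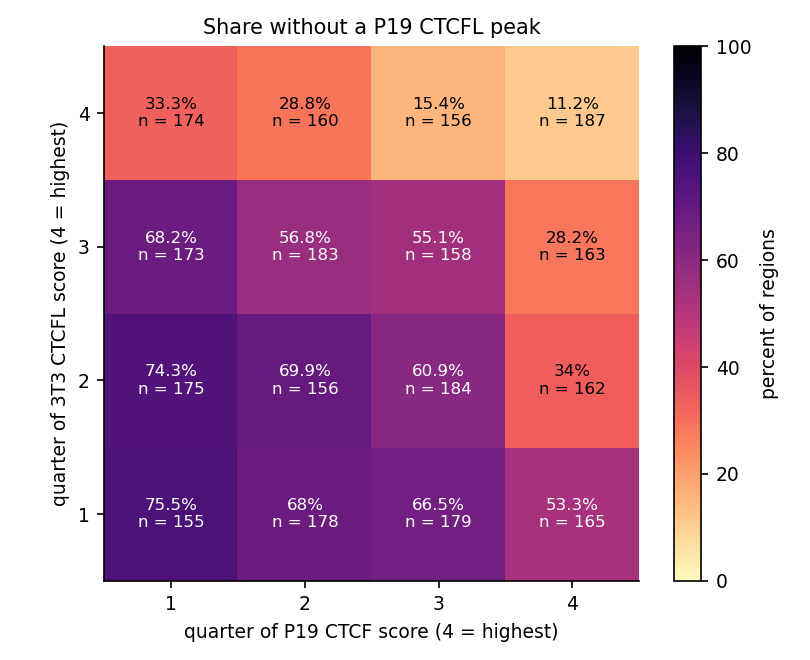
Percent of common CTCF regions with 3T3 CTCFL that have no P19 CTCFL peak (colour and numbers), in 4 groups of equal size by P19 CTCF score (x axis) and by 3T3 CTCFL score (y axis), 4 being the highest. The share is 75.5% in the corner of lowest scores and 11.2% in the corner of highest scores.

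The lists give no summits, so midpoints of the leading peaks were compared. Overlap chose the regions and, with the peak widths, limits how far midpoints can lie apart, so these offsets are a description. The 3T3 CTCFL midpoint lay a median of 69.5 bp (64.5 to 74.0) from that of 3T3 CTCF and 97.0 bp (88.5 to 104) from that of P19 CTCF, and within 100 bp in 63.2% and 51.1% of regions. It was the nearer to 3T3 CTCF in 803 regions, 59.3% (56.6 to 61.9). In 952 regions, 70.3%, the CTCFL peak lay wholly inside the 3T3 CTCF peak. In 1235, 91.1%, the leading peaks of the 3 lists had at least 1 bp in common. These shares were close to those in regions of all 4 lists, 59.4%, 65.9% and 93.1% in the same order. The median offset of CTCFL from 3T3 CTCF was much alike in regions of all 4 lists (74.5 bp, 69.5 to 79.5) and in regions of both factors with no P19 peak (68.5 bp, 66.0 to 71.0).

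The CTCF peaks of the 2 lines were less well centred on each other here than at regions without CTCFL. Their midpoints were a median of 94.5 bp (87.5 to 99) apart, against 59.0 bp (58.0 to 60.5) in regions without CTCFL, 64.5 bp in those with CTCFL in P19 only and 114 bp in regions of all 4 lists. The 3T3 CTCF peaks were also wider than in regions without CTCFL, and the midpoint of a wide peak is less precise. Within 10 groups of 3T3 CTCF peak width, 36.9% (34.3 to 39.5) of the 3T3-only CTCFL regions had an offset below the median of regions without CTCFL, where equal offsets would give 50%. In the widest group (676 bp and above, 470 of the 1355 regions) the medians were 172 bp and 104 bp, and in the group of 489 to 551 bp they were 66.5 and 57.0 bp. The difference from regions without CTCFL was thus found within groups of peak width, and was smaller outside the widest, which spans 676 to 2812 bp. Set against the median offset of regions of all 4 lists, the share below it was 49.4% (46.8 to 52.1). Against regions with CTCFL in P19 only it was 39.0% (36.4 to 41.6).

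**Figure D5:**
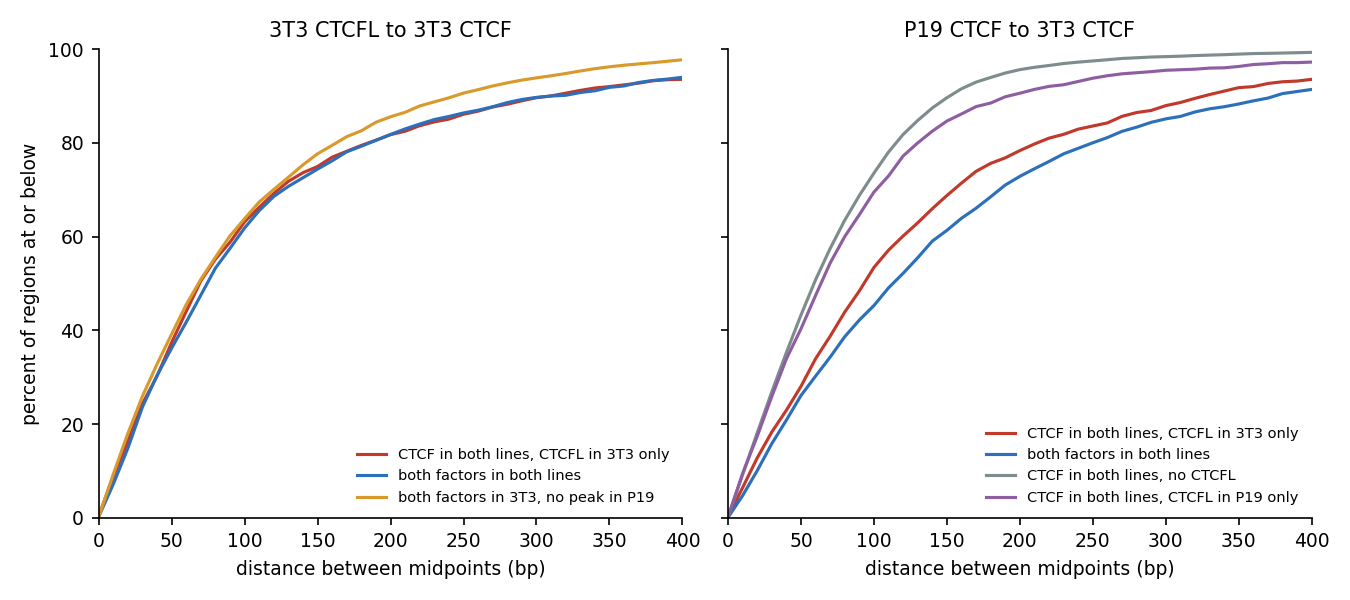
Percent of regions (y axis) whose peak midpoints lie at or below a given distance in bp (x axis), for 3T3 CTCFL to 3T3 CTCF (left) and P19 CTCF to 3T3 CTCF (right), 1 line for each class of regions. The 3T3-only CTCFL regions (red) have medians of 69.5 bp on the left and 94.5 bp on the right, where regions without CTCFL have 59.0 bp.

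In 3T3 the median peak width in the 3T3-only CTCFL regions was 557 bp for CTCF (list median 342 bp) and 289 bp for CTCFL (list median 283 bp). In P19 it was 690 bp for CTCF (list median 636 bp). The 3T3 CTCF peak was thus wide for its list, CTCFL and P19 CTCF were near their list medians, and CTCFL was the narrower 3T3 peak in 92.8% of regions. In regions without CTCFL the CTCF peaks were 384 bp in 3T3 and 664 bp in P19. In regions with both factors in both lines the 3T3 peaks were wider than here, with medians of 676 bp for CTCF and 396 bp for CTCFL. In regions with both factors in 3T3 and no P19 peak these medians were 497 bp and 327 bp. With CTCFL in P19 only, the median for 3T3 CTCF was 426 bp. Widths were not compared at like score, so how far they go with the high 3T3 CTCF scores here was not tested. Merged regions had a median width of 832 bp, and 1137 of 1355, 83.9%, held exactly 1 peak of each of the 3 lists. More than 1 peak was found for 3T3 CTCF in 115 regions, 3T3 CTCFL in 123 and P19 CTCF in 5. The widest, chr8:11006798-11009609 at 2812 bp, was spanned by its 3T3 CTCF peak (score 1902) and held 2 CTCFL peaks, the higher at 529. The next, chr11:51668640-51671105, had a 3T3 CTCF peak of 2226 bp with a score of 1173 and a CTCFL score of 50.1.

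The rule leaves out regions that overlap a P19 CTCFL peak, and few of those kept had one just beside them. Within 1000 bp the share was nevertheless higher than at regions without CTCFL in either line. A P19 CTCFL peak lay within 200 bp of 8 regions, 0.590% (0.255 to 1.16), within 1000 bp of 42, 3.10% (2.24 to 4.17), and within 10000 bp of 244, 18.01% (16.0 to 20.2). Regions without CTCFL in either line had 0.236%, 1.66% and 12.3%, and regions with both factors in 3T3 and no P19 peak 0.819%, 3.91% and 16.7%. The median distance was 50681 bp here, 84336 bp in the regions without CTCFL and 59402 bp in those with both factors in 3T3 alone. Among the 3T3-only CTCFL regions, those nearest to the limit of the rule were chr6:124853337-124854158, 4 bp from a P19 CTCFL peak, chr7:52410168-52411030 at 30 bp, and chr17:5402543-5403244 at 42 bp. On the other side of the limit, in regions of all 4 lists, the smallest overlaps of a P19 CTCFL peak with another peak were 117 bp at chr4:99768111-99769768, 129 bp at chrX:97014615-97016848 and 135 bp at chr13:55572416-55574941. No P19 CTCFL overlap of 10 bp or less was found in those regions. On the score side, 152 of the 1355 regions had a 3T3 CTCFL score under 60 and 99 a P19 CTCF score under 60, and 177 of the 1353 regions of all 4 lists had a P19 CTCFL score under 60.

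The surroundings held more 3T3 CTCFL than those of CTCF regions without it. Another region with 3T3 CTCFL lay within 10 kb of 568 of the 1355 regions, 41.9% (39.3 to 44.6), against 41.5% (38.8 to 44.1) for regions of all 4 lists, 35.5% (33.3 to 37.9) for those with CTCFL in P19 only and 24.4% (23.7 to 25.1) for those without CTCFL. Another region with P19 CTCFL was that close to 18.5% (16.4 to 20.6), 21.7%, 19.1% and 12.4% in the same order. Another common CTCF region was within 10 kb for 39.9%, 42.2%, 40.9% and 35.1%. Neighbouring CTCF sites thus differed less between the classes than neighbouring 3T3 CTCFL sites. From each other they were mostly far. The nearest other was a median of 234325 bp away, and 81 regions, 5.98% (4.78 to 7.38), had another within 10 kb.

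The regions were found on all autosomes and X. The number per chromosome went from 25 on X and 27 on chromosome 16 to 120 on chromosome 2. As a share of common CTCF regions they ranged from 5.71% on chromosome 16 (3.795 to 8.20) to 9.55% on chromosome 15 (7.66 to 11.7), with 7.36% over all, and the intervals of 3 of 20 chromosomes lay clear of that value, those of chromosomes 1 (4.56 to 7.19), 7 (7.49 to 10.7) and 15. Of common CTCF regions with 3T3 CTCFL, the share without P19 CTCFL ranged from 40.6% on chromosome 11 (34.8 to 46.6) to 58.5% on chromosome 7 (51.2 to 65.5), and the intervals of these 2 of 20 chromosomes lay clear of the 50.04% over all. Among 20 intervals of 95%, some can lie clear through counting error alone, and neighbouring regions are not independent. No chromosome is therefore singled out. In windows of 1 Mb, 434 of the 753 windows with any such region held 1. The most was 8, in 2 windows. One was chr7:52000001-53000000, with 8 of 38 common CTCF regions, beside 5 of all 4 lists. The other was chr10:80000001-81000000, with 8 of 57 beside 6.

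No gene, exon or sequence is given for the regions, since a genome and annotation of the mm9 build were not used here.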

How the data were processed

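Each of the 4 samples analysed has 1 deposited peak list, with positions and a score of the authors' peak caller. Tools listed in the submitters' processing notes are MACS 1.4, SAMtools, Bowtie and FastQC. Of the builds listed there, mm9 and hg19, the first was taken because the cells are mouse. The sources used here give no settings, control library, pooling or read depth. Per the labels' protocols, 10 ng of precipitated DNA went into each library. Controls of cells without the constructs were not analysed here.

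Starts were converted to count from 1. Percentiles are ranks within a list, ties at their mean rank. Score groups are of nearly equal size. No test was run, since each group had 1 library. The planned gene, motif and sequence steps were not run for want of a genome of the same build. The regions and the classes set beside them were chosen with earlier results of these data known. The comparisons of P19 CTCF rank at like CTCF score and of midpoint offsets at like peak width were added after the values were seen. Named regions are the extremes of score, of rank difference, of width and of distance to P19 CTCFL under a written rule. The windows are those with most regions.

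Merged regions equalled those of bedtools in 65700 of 65700 cases, and 5130 of 5130 simulated regions had their planted pattern. The tools were bedtools 2.31.1, matplotlib 3.10.9 and SciPy 1.17.1, with pandas 2.3.3 and numpy 2.4.6 under Python 3.11.15.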

Additional observations from a re-analysis of the deposited data

How the results depend on the processing

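Groups of 1 library leave no replicate to omit or pair. Motif and gene alternatives were not run, and the share without P19 CTCFL by score group, set at the start, stands in the results. Under settings chosen at the start, 33 values lay inside the reported interval (or within 1.5 times a count) and 18 lay outside. Reversal of direction was not scored. With scores of at least 100 in every list there were 791 regions, and 63.8% of common CTCF regions with 3T3 CTCFL lacked P19 CTCFL. With that limit except in P19 CTCFL there were 446, which was 4.31% of common CTCF regions and 35.9% of those with 3T3 CTCFL. Lists of equal length gave 135 and 23.3%. Such limits remove weak peaks by construction. For the other shifts the cause was not tested. Peak midpoints within 200 bp gave 5.97% of common CTCF regions, 55.0% without P19 CTCFL, and median percentiles of 95.8 for 3T3 CTCF and 63.6 for P19 CTCF. Peaks resized to 200 bp gave 5.96% of common CTCF regions. Regions with 1 peak of each list made up 6.52%, with a median width of 795 bp and median CTCFL offsets of 62.5 bp from 3T3 CTCF and 86.0 bp from P19 CTCF. P19 CTCFL within 200 and 10000 bp was found for 0.590% and 18.01%. These were set against the share within 1000 bp and count as outside because the distance differs. Of 7 alternatives added after seeing the data for the share below the P19 CTCF median at like 3T3 CTCF score, 6 stayed within its interval, and groups of peak width gave 56.7%. Counted in peaks from the top of each list, also added later, 3T3 CTCF ranked above P19 CTCF in 85.2% of regions.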
